A study of Arabidopsis thaliana with 6 samples.

Results

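The genes described here are 9 of the 27655 genes in the count tables: MMD1, which encodes a PHD finger protein of male meiocytes, and 8 genes for subunits of condensin, the protein complex that compacts chromosomes before they are pulled apart. They were taken by locus identifier from the gene column of all 6 tables, as the known members of the complex and its regulator. The set was drawn up with earlier results of these data known. Cells collected as male meiocytes were pressed out of anthers of stages 4 to 7 of Arabidopsis thaliana, and polyadenylated RNA was sequenced from 3 libraries labelled knu-2 and 3 libraries labelled Ler. Ler is the laboratory strain Landsberg erecta with no allele named, and the knu-2 plants have a mutation in the zinc finger gene KNUCKLES (KNU). The labels give neither the strain in which knu-2 is kept nor the age of the plants nor any treatment. Whether a difference of strain enters the comparisons was not tested. They name no sorting of the released cells. The titles mark each library as a biological replicate (biorep) but do not tell if different plants gave the replicates. Each p-value therefore reflects only how far these libraries differ.

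Condensin is a ring. A pair of ATPase proteins, SMC2 and SMC4, forms its long arms, a kleisin closes it, and HEAT repeat proteins sit on the kleisin. Plants, like animals, build condensin I from the SMC pair with the kleisin CAP-H and the HEAT proteins CAP-D2 and CAP-G, and condensin II from the same SMC pair with the kleisin CAP-H2 and the HEAT proteins CAP-D3 and CAP-G2. Arabidopsis has a pair of SMC2 genes, SMC2A and SMC2B. MMD1, also known as DUET, reads methylation of histone H3 through its PHD finger, and it is known as an activator of CAP-D3 in male meiocytes, where its loss leaves meiotic chromosomes poorly condensed. CAP-G2 (AT1G64960) is not among the 9 and is given beside them because condensin II is incomplete without it.

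All 9 genes have 1 locus each in the TAIR10.1 annotation. MMD1 (AT1G66170) lies on chromosome 1 from 24638685 to 24641494 with 3 exons. SMC4 (AT5G48600) has 28 exons and lies on chromosome 5 from 19701728 to 19709342, and SMC2A (AT5G62410) has 20 exons and lies on the same chromosome from 25056025 to 25062670. SMC2B (AT3G47460) also has 20 exons, on chromosome 3 from 17486490 to 17493395. The condensin I genes are CAP-D2 (AT3G57060, chromosome 3, 21114798 to 21121160), CAP-G (AT5G37630, chromosome 5, 14947227 to 14952806) and CAP-H (AT2G32590, chromosome 2, 13829290 to 13833342). The condensin II genes are CAP-D3 (AT4G15890, chromosome 4, 9017256 to 9023026) and CAP-H2 (AT3G16730, chromosome 3, 5695321 to 5699167). CAP-G, CAP-H and SMC2B end in a gene on the opposite strand with which they share 25, 28 and 53 exonic bases. No source says if reads were assigned by strand.

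The sequences just upstream of 4 of these genes are shown: MMD1 and its known target CAP-D3, which fell steeply as described below, and SMC2B and CAP-H2, the subunit genes with the smallest changes. Each runs 5′ to 3′ on the strand of the gene up to the base before the annotated start, in the Columbia reference TAIR10.1 and not in Ler, and stops at 250 bases or at the neighbouring gene. They cover chr1:24641495-24641744 (minus strand) for MMD1, chr4:9017006-9017255 (plus strand) for CAP-D3, chr3:17486348-17486489 (plus strand) for SMC2B and chr3:5699168-5699309 (minus strand) for CAP-H2. Capitals mark a match to the E2F motif, the site of a family of cell cycle transcription factors.
MMD1: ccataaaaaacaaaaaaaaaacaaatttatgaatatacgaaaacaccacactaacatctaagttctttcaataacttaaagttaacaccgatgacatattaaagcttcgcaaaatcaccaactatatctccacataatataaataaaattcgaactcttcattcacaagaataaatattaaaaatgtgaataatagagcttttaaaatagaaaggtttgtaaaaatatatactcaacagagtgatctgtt
CAP-D3: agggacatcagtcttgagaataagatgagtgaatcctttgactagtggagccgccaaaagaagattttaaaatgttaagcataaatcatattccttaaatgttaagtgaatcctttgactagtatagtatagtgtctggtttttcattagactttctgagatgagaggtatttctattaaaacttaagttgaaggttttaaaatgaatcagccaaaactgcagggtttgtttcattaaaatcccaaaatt
SMC2B: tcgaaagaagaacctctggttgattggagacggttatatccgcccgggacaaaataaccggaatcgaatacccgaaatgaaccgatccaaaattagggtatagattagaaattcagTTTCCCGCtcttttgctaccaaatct
CAP-H2: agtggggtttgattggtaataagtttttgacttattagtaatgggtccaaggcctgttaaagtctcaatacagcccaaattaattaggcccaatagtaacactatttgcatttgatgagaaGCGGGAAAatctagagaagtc
The E2F motif was searched on both strands as TTTCCCGC, TTTCGCGC, TTTGCCGC and TTTGGCGC in the 250 bases before each gene. Of the 10 genes with CAP-G2, 2 held it, SMC2B at 26 to 19 bases and CAP-H2 at 21 to 14 bases before the start, and 1.41% of all 27443 such windows did. The core of the mitosis-specific activator element, searched as AACGG on both strands, stood before CAP-H, SMC2A and SMC4, 3 of the 10, against 20.6% of all windows. These windows, unlike the sequences shown, were not cut at neighbouring genes. The CAP-H match, at 233 to 229 bases before the start, lies beyond the 202 bases that are free of another gene. No match of one motif overlapped a match of the other in these genes. These letters are a description of the reference and not a test of binding. Whether either motif goes with the size of the changes was not tested.

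KNU, the gene mutated in knu-2, was at 13.8, 7.49 and 4.62 scaled CPM (read counts adjusted for the size of each library) in the knu-2 libraries, against 75.1, 68.1 and 87.2 CPM in the Ler libraries. Totals ran from 18070435 to 27995200 counts, and all 9 genes passed the filter on low counts, with 74 to 4976 counts in a library. Many markers of the anther cell types differed between the genotypes as well, where 24.4% of the 18422 genes tested were called lower in knu-2 and 23.6% higher. Of 14 meiocyte markers 12 fell, REC8 rose and MER3 was not called. MER3 was at a log2 fold change of -4.41 (SE 1.43, adjusted p = 0.063), with every knu-2 library below every Ler library. The summed level of the 14 markers was 1173 to 2164 CPM in knu-2 and 5162 to 6366 CPM in Ler. Of 15 markers of the tapetum, the anther layer that surrounds and feeds the meiocytes, 10 of the 12 tested rose, DYT1 fell and 1 was not called, and their summed level was 2905 to 3691 CPM in knu-2 and 657 to 933 CPM in Ler. The tapetum genes MS1, MS2 and CYP703A2 had no count in any library, which by depth alone allows at most 0.119 to 0.166 CPM. Whether the counting could register these genes was not tested. None of 7 anther wall markers was called, and their sums of 672 to 1624 CPM in knu-2 overlapped those of 792 to 1176 CPM in Ler. In such bulk samples fewer meiocytes and less RNA per meiocyte cannot be told apart. The 14 meiocyte markers did not change by a common amount. Their log2 fold changes ran from -4.41 for MER3 to 0.49 (SE 0.17) for REC8. Between these, HOP2 was at -1.54 (SE 0.21) and MSH5 at -3.45 (SE 0.73). The cause of this spread and the share of each anther stage in a library were not tested. The part of the cell mix in the results that follow was not tested either. The 2 meiocyte markers with the smallest p were PRD1, needed for meiotic DNA breaks, at a log2 fold change of -3.10 (SE 0.31), and the axis gene ASY1 at -2.37 (SE 0.27). Those of the tapetum list were CYP704B1 and ACOS5, which make pollen wall precursors in the tapetum, at 2.85 (SE 0.21) and 2.52 (SE 0.20).

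Transcripts of MMD1 and of 7 of the 8 condensin subunits fell in knu-2, and CAP-H2 was the exception. In the model across all genes 8 of the 9 were called lower at an adjusted p under 0.05 and none was called higher, beside 24.4% lower and 23.6% higher among all genes tested. The same 8 genes had every knu-2 library below every Ler library, as did 29.3% of all genes tested. None had every knu-2 library above every Ler library, which 29.8% of all genes did. The median log2 fold change of the 9 was -2.21, beside 0.10 over all genes tested. Of the 9, 5 were called with a log2 fold change of -2 or less, MMD1, SMC4, CAP-D3, CAP-G and CAP-D2, and 5.26% of all genes tested reached that. The count was 8 without any 1 of the 6 libraries and 7 under each of 2 other alternatives, one of which lost MMD1 and the other SMC2B.

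**Figure D1:**
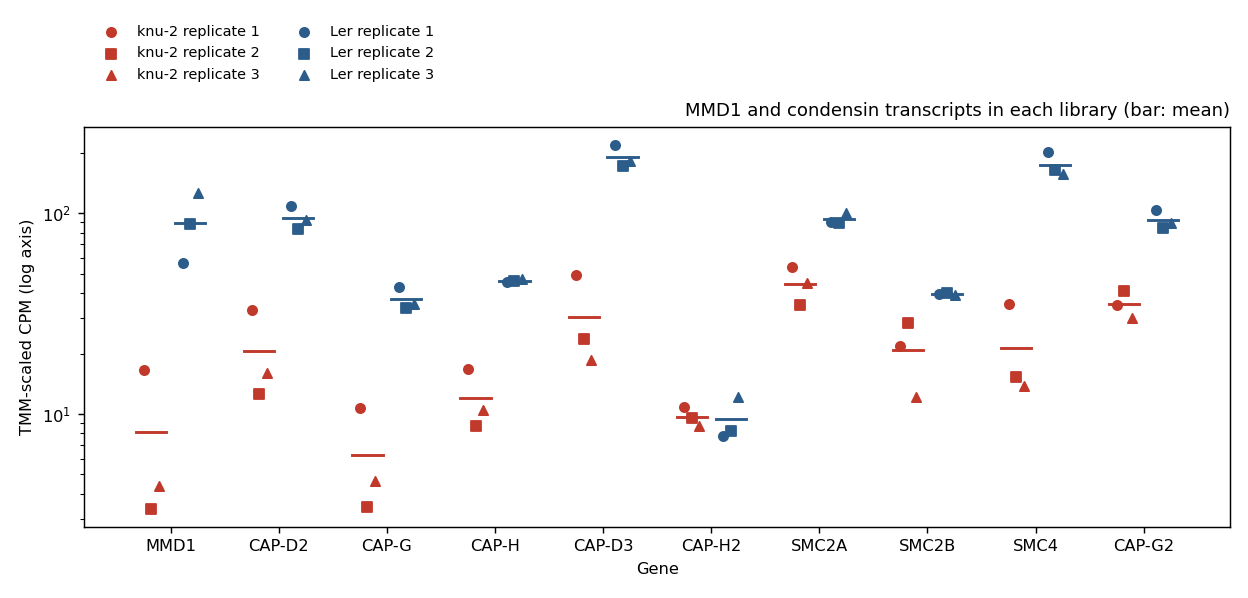
Scaled CPM on a log axis for MMD1, the condensin subunits and CAP-G2 in each knu-2 library (red) and each Ler library (blue), with a bar at the mean of 3 libraries. The red points lie below the blue points for every gene but CAP-H2, and knu-2 replicate 1 is the highest red point for all of the genes but SMC2B and CAP-G2.

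MMD1 had the lowest estimated log2 fold change of the 9. It was at 16.5, 3.38 and 4.38 CPM in knu-2 replicates 1 to 3, against 56.2, 87.8 and 125 CPM in Ler replicates 1 to 3. The groups did not overlap, but each was spread widely: knu-2 replicate 1 was well above the other knu-2 libraries, and Ler replicate 3 was well above Ler replicate 1. The means were 8.09 ± 7.32 CPM in knu-2 and 89.8 ± 34.6 CPM in Ler (SD, n = 3 each), 11.1-fold lower in knu-2, with a log2 fold change of -3.48 (SE 0.75, adjusted p = 0.0135). Of all genes tested, 1.44% had a lower log2 fold change. Without knu-2 replicate 1 the log2 fold change was -4.54 (adjusted p = 6.49e-06), and with any 1 library left out the adjusted p ran up to 0.0437. The call was lost under 1 of 13 alternatives (adjusted p = 0.0806).

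SMC4, the ATPase that both condensins contain, was at 35.1, 15.3 and 13.8 CPM in knu-2, against 201, 163 and 157 CPM in Ler. All 3 knu-2 libraries were far below the Ler libraries, and replicate 1 was again the highest of them. Its log2 fold change of -3.02 (SE 0.37, adjusted p = 0.000257) corresponds to means 8.12-fold lower in knu-2. The other arm of the ring changed less. SMC2A was at 54.0, 34.9 and 44.9 CPM in knu-2, against 90.0, 89.5 and 99.9 CPM in Ler, a log2 fold change of -1.06 (SE 0.19, adjusted p = 0.000738). SMC2B was at 21.7, 28.5 and 12.1 CPM in knu-2, against 39.4, 40.1 and 39.0 CPM in Ler, a log2 fold change of -0.93 (SE 0.27, adjusted p = 0.0152). The Ler values of SMC2B were almost equal, whereas those of knu-2 spread from 12.1 to 28.5 CPM with replicate 2 the highest. With no scaling beyond library totals, which shifts the median of all genes to 0.42 from 0.10, SMC2B was at -0.59 and not called (adjusted p = 0.131). SMC2B shares its last bases with LHCA4, a photosynthesis gene on the other strand, which was at 83.7, 227 and 108 CPM in knu-2 and at 128, 164 and 102 CPM in Ler. LHCA4 was thus also highest in knu-2 replicate 2, and its part in the SMC2B counts was not tested.

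SMC2A and SMC2B are close copies, so reads could be shared between them. Their coding sequences were identical at 85.2% of 3520 aligned positions, and the longest run that both transcripts hold without a difference is 47 bases, from coding base 2614 in each. It is shown because a read that lies within it cannot be placed in either gene, whereas a longer read meets a difference.
Run shared by SMC2A and SMC2B: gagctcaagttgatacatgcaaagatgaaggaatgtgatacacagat
SMC2B held 28.8%, 45.1% and 21.4% of the SMC2 counts per kilobase in knu-2, against 30.6%, 31.1% and 28.2% in Ler. The Ler shares lie within the range of the knu-2 shares.

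All 3 subunits found only in condensin I fell. The HEAT protein gene CAP-D2 was at 32.9, 12.6 and 16.1 CPM in knu-2, against 108, 83.5 and 92.8 CPM in Ler, and its log2 fold change was -2.21 (SE 0.34, adjusted p = 0.000656). CAP-G, the other HEAT protein gene, was at 10.8, 3.43 and 4.62 CPM in knu-2, against 42.9, 33.7 and 35.2 CPM in Ler, with -2.58 (SE 0.39, adjusted p = 0.000433). The kleisin gene CAP-H was at 16.8, 8.73 and 10.4 CPM in knu-2, against 45.6, 45.9 and 47.0 CPM in Ler, with -1.95 (SE 0.25, adjusted p = 9.64e-05). For each of the 3 genes the knu-2 library nearest to Ler was replicate 1 and the farthest was replicate 2. CAP-G was at -3.22 without knu-2 replicate 1. The neighbour that overlaps the end of CAP-H, AT2G32580, was at 40.6 to 47.9 CPM in knu-2 and 35.7 to 43.7 CPM in Ler, and the one that overlaps CAP-G, UBQ9, had no count in knu-2 and at most 0.514 CPM in Ler.

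The subunits of condensin II did not move alike. CAP-D3, the HEAT protein gene that MMD1 is known to activate, was at 49.1, 23.7 and 18.7 CPM in knu-2, against 219, 172 and 181 CPM in Ler. Its groups lay far apart, with means of 30.5 ± 16.3 CPM in knu-2 and 191 ± 24.7 CPM in Ler (SD, n = 3 each), 6.26-fold lower in knu-2, and a log2 fold change of -2.65 (SE 0.35, adjusted p = 0.000388). CAP-G2 was at 34.7, 40.9 and 30.2 CPM in knu-2, against 104, 84.2 and 89.6 CPM in Ler, with -1.39 (SE 0.18, adjusted p = 9.55e-05). It shares 120 exonic bases with G-TMT on the other strand, which was at 32.7, 64.4 and 25.2 CPM in knu-2 and at 33.9, 41.3 and 17.5 CPM in Ler. Both genes were highest among the knu-2 libraries in replicate 2.

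CAP-H2, the kleisin of condensin II, was at 10.9, 9.50 and 8.76 CPM in knu-2, against 7.74, 8.22 and 12.2 CPM in Ler. The groups overlapped, with the highest and the lowest value both in Ler. Its log2 fold change was 0.05 (SE 0.30, adjusted p = 0.909) with a 95% interval of -0.61 to 0.71, which leaves room for a change of either sign, and the sign itself turned with the scaling and with the library left out. The upper ends of the intervals of the other subunit genes were -0.33 for SMC2B, -0.65 for SMC2A and -1.40 or lower for CAP-D2, CAP-G, CAP-H, CAP-D3 and SMC4.

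**Figure D2:**
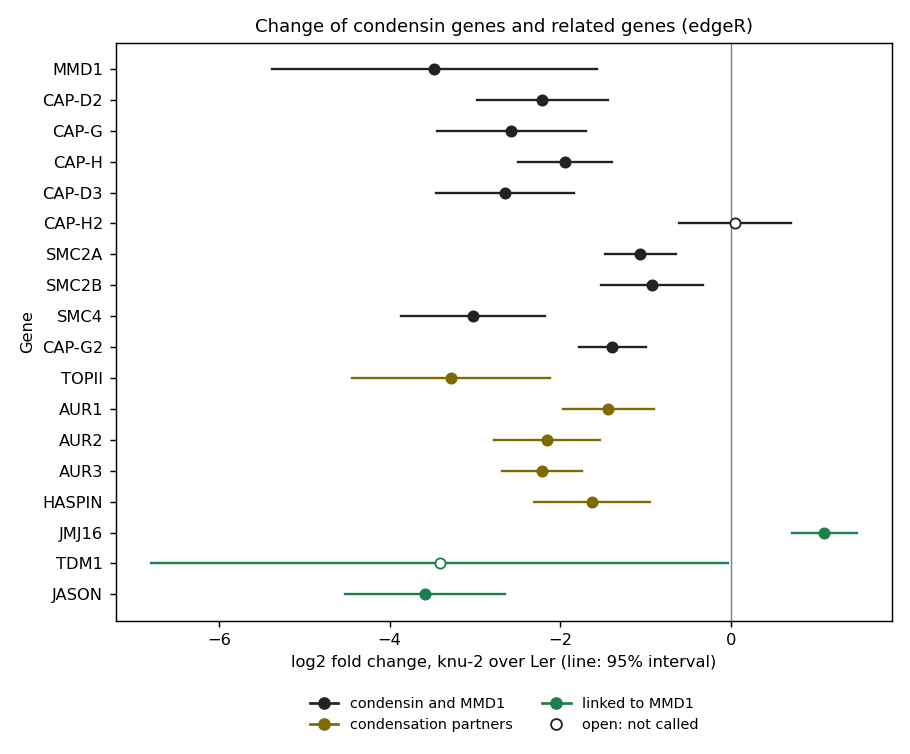
Log2 fold change of knu-2 over Ler with its 95% interval for MMD1, the condensin subunits and CAP-G2 (black), genes that work with condensin (ochre) and genes linked to MMD1 (green). Filled points were called and open points were not; CAP-H2 sits at 0.05 while SMC4 and MMD1 sit at -3.02 and -3.48.

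The order of the genes by level differed between the genotypes. Levels of different genes are given here as scaled CPM per kilobase of gene length. In knu-2 the order was SMC2A with 11.03 ± 2.35, CAP-G2 with 8.95 ± 1.37, CAP-D3 with 6.89 ± 3.69, CAP-H with 5.25 ± 1.86, SMC2B with 5.17 ± 2.05, SMC4 with 5.14 ± 2.86, CAP-D2 with 4.43 ± 2.34, CAP-H2 with 3.64 ± 0.400, MMD1 with 3.24 ± 2.93 and CAP-G with 1.74 ± 1.09 (SD, n = 3). In Ler CAP-D3 stood first with 43.1 ± 5.58, followed by SMC4 with 41.7 ± 5.73, MMD1 with 36.0 ± 13.9, CAP-G2 with 23.5 ± 2.54, SMC2A with 23.0 ± 1.45, CAP-D2 with 20.5 ± 2.71, CAP-H with 20.3 ± 0.331, CAP-G with 10.4 ± 1.37, SMC2B with 9.84 ± 0.144 and CAP-H2 with 3.52 ± 0.920 (SD, n = 3). Among neighbours in the Ler order, only CAP-H and CAP-G, and SMC2B and CAP-H2, had ranges that did not overlap, and in knu-2 the ranges of all neighbours overlapped. The mean levels of CAP-D3 and SMC4 exceeded those of 39.6% and 32.9% of the genes tested in knu-2, against 81.1% and 80.7% in Ler. For CAP-H2 these shares were 26.1% in knu-2 and 29.5% in Ler.

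Ratios between a pair of genes in the same library do not depend on how libraries are scaled, and 5 were compared. CAP-H2 stood at 0.553, 0.930 and 0.718 of the per-kilobase level of CAP-H in knu-2, against 0.145, 0.153 and 0.222 in Ler. The knu-2 ratios were all above the Ler ratios, by 2.08 on the log2 scale. CAP-G2 exceeded CAP-G by 2.94, 10.9 and 5.96 times in knu-2, against 2.21, 2.28 and 2.33 times in Ler, a difference of 1.34 on the log2 scale, with knu-2 replicate 1 close to Ler. CAP-D3 exceeded CAP-D2 by 1.57, 1.97 and 1.22 times in knu-2, against 2.12, 2.16 and 2.05 times in Ler, a difference of -0.44. These 3 ratios separated the genotypes in every library, each with an exact two-sided permutation p of 0.1, the smallest that 3 against 3 libraries allow, and 0.167 after adjustment over the 5 ratios. How often ratios of other gene pairs separate the genotypes was not tested. The ratio of SMC2B to SMC2A was 0.405, 0.821 and 0.272 in knu-2, against 0.441, 0.452 and 0.393 in Ler (difference 0.07, exact p = 0.9, adjusted 0.9), and without knu-2 replicate 2 the difference was -0.37. The ratio of CAP-D3 to MMD1 was 1.68, 3.95 and 2.40 in knu-2, against 2.19, 1.11 and 0.814 in Ler (difference 1.00, exact p = 0.2, adjusted 0.25), and the groups overlapped.

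**Figure D3:**
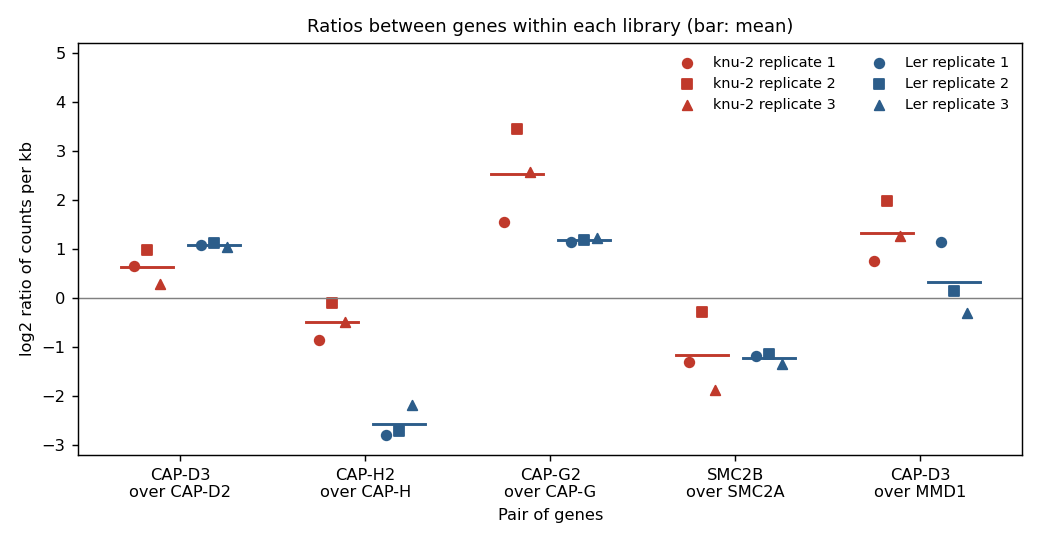
Log2 ratio of counts per kilobase between pairs of genes within each knu-2 library (red) and each Ler library (blue), with a bar at the mean. The groups lie apart for CAP-D3 over CAP-D2, CAP-H2 over CAP-H and CAP-G2 over CAP-G, and overlap for SMC2B over SMC2A and CAP-D3 over MMD1.

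The knu-2 libraries differed among themselves in the same way for most of the genes. Relative to the Ler mean, the mean log2 difference of the 9 genes was -1.41, -2.38 and -2.39 in knu-2 replicates 1 to 3. The meiocyte markers were at -1.80, -3.40 and -3.17 in the same libraries, the tapetum markers at 1.31, 1.66 and 1.40, and the anther wall markers at -0.59, 0.75 and -0.49. SMC2B departed from this order, at -0.86, -0.47 and -1.68. Set against the mean log2 CPM of the meiocyte markers in the same library, CAP-D3 stood at -0.69, -0.14 and -0.70 in knu-2 and at -0.50, -0.60 and -0.54 in Ler. Its values in knu-2 thus lay on both sides of those in Ler. SMC4 stood at -1.17, -0.76 and -1.13 in knu-2, below its -0.63, -0.68 and -0.74 in Ler. MMD1 stood at -2.25, -2.86 and -2.73 in knu-2 and at -2.46, -1.58 and -1.07 in Ler, with overlap. CAP-H2 stood at -2.84, -1.44 and -1.77 in knu-2, against -5.28, -4.95 and -4.40 in Ler, and SMC2A at -0.56, 0.41 and 0.55 in knu-2, against -1.78, -1.55 and -1.40 in Ler. Both of these fell less than the markers or did not fall, so their relative values were higher in knu-2. The mean difference, knu-2 minus Ler, ran over the 9 genes from -0.91 for MMD1 through -0.34 for SMC4, 0.04 for CAP-D3, 0.11 for CAP-G, 0.48 for CAP-D2, 0.81 for CAP-H, 1.71 for SMC2A and 1.79 for SMC2B to 2.86 for CAP-H2. These differences are a description with no test, and they depend on the marker summary: with the median of the markers SMC4 was at -0.0295 and CAP-D3 at 0.35, and without REC8, a marker that itself rose, they were at -0.087 and 0.29.

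**Figure D4:**
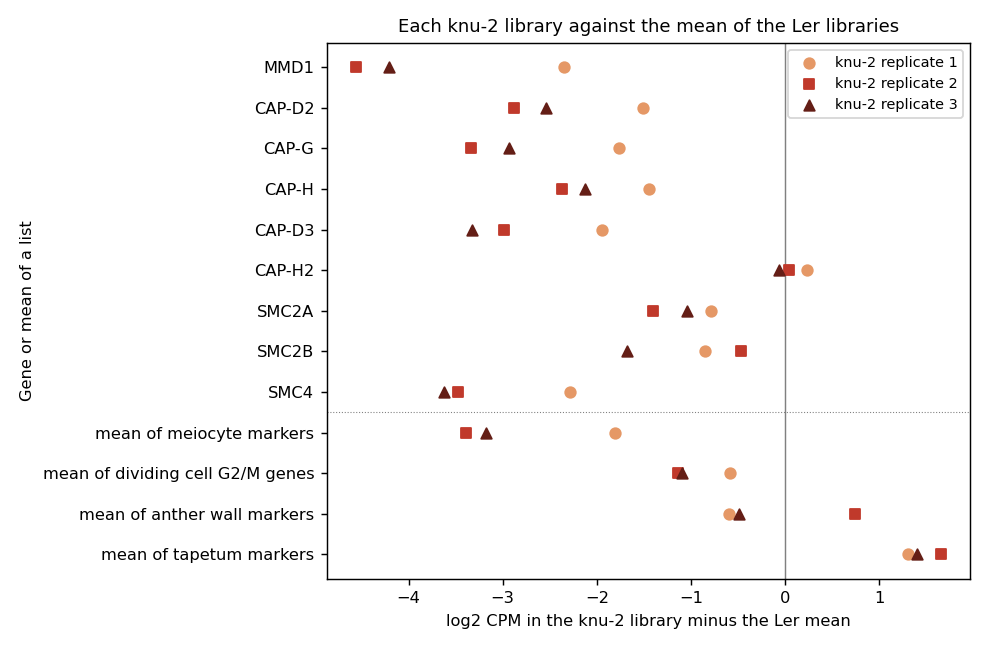
Difference in log2 CPM between each knu-2 library and the mean of the Ler libraries, for the 9 genes and, under the dotted line, for the means of 4 marker lists. Replicate 1 lies nearest to 0 for MMD1, CAP-D2, CAP-G, CAP-H, CAP-D3, SMC2A and SMC4 and for the meiocyte markers, while the tapetum markers lie to the right of 0 in all 3 libraries.

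Genes that act with condensin on chromosomes fell as well. Topoisomerase II, which removes tangles while condensin folds the chromosome, was at 115, 48.6 and 32.5 CPM in knu-2, against 686, 617 and 606 CPM in Ler, with a log2 fold change of -3.28 (SE 0.48, adjusted p = 0.0015), or -4.00 without knu-2 replicate 1. AUR3, an Aurora kinase of centromeres, was at 13.1, 12.0 and 8.68 CPM in knu-2, against 57.0, 54.0 and 45.8 CPM in Ler, with -2.22 (SE 0.21, adjusted p = 1.9e-05). The kinase genes AUR2, AUR1 and HASPIN, whose products phosphorylate histone H3, were at -2.16 (SE 0.28), -1.44 (SE 0.24) and -1.63 (SE 0.31). All 5 were called lower, with a median of -2.16, beside 24.4% of all genes called lower and a median of 0.10. TOPII, AUR1 and HASPIN were named with their values known.

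Of 3 genes linked to MMD1 by earlier work, JASON, which is needed for the spindles of the second meiotic division, was at 30.0, 11.3 and 11.7 CPM in knu-2, against 226, 216 and 193 CPM in Ler, with -3.59 (SE 0.40, adjusted p = 0.00023), or -4.23 without knu-2 replicate 1. JMJ16, a histone demethylase that binds MMD1, rose and was at 91.3, 100 and 92.1 CPM in knu-2, against 48.9, 35.8 and 48.1 CPM in Ler, with 1.09 (SE 0.17, adjusted p = 0.000383). TDM1, whose product ends meiosis and whose transcription needs MMD1, was at 8.77, 0.320 and 0.892 CPM in knu-2, against 19.5, 33.5 and 51.9 CPM in Ler. The groups lay apart, but the log2 fold change of -3.41 (SE 1.29) did not pass (adjusted p = 0.0898), whereas without knu-2 replicate 1 it was -5.83 and was called (adjusted p = 3.62e-05). Among the PHD finger genes most like MMD1, AT2G01810 was at 44.0, 44.9 and 51.3 CPM in knu-2, against 9.81, 14.1 and 16.8 CPM in Ler, with 1.79 (SE 0.23, adjusted p = 8.9e-05). Its transcript shares with that of MMD1 a longest run of 36 bases, from coding base 409 of MMD1, which is shown because the gene with this stretch in common moved the other way.
Run shared by MMD1 and AT2G01810: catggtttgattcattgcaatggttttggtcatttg
AT1G33420 was at 0.44 (SE 0.17, adjusted p = 0.0485), a call that was lost when any 1 of the 6 libraries was left out (adjusted p = 0.0701 to 0.149) and under 11 of 13 alternatives in all, and MS1 had no count.

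Genes of other SMC complexes and of the cell cycle were called in both directions, beside 24.4% of all genes tested called lower and 23.6% called higher. The cohesin list has 16 genes, for subunits of the complex that holds sister chromatids together and for proteins that act on it. Of these 6 fell, 2 rose and 8 passed no threshold, and the median was -0.64 on the log2 scale. The separase gene ESP was at -1.61 (SE 0.18) and the cohesin loader gene SCC2 at -2.63 (SE 0.28). The risers, SYN4 at 1.03 (SE 0.27, adjusted p = 0.0087) and REC8 at 0.49 (SE 0.17, adjusted p = 0.0317), both encode kleisins and were named with their values known. REC8 lost its call under 7 of 13 alternatives, among them without Ler replicate 1, 2 or 3 and without knu-2 replicate 1 or 3 (adjusted p up to 0.148). Of 9 genes tested for SMC5/6, a complex of DNA repair, 2 fell, 1 rose and 6 were not called, with a median of -0.33, and the number that fell was near the share of all genes. NSE3 was at -1.81 (SE 0.25) and NSE2 at -1.06 (SE 0.16), and ASAP1, named with its values known, was at 1.79 (SE 0.32). Of 15 G2/M genes of dividing cells 6 fell, 3 rose and 6 were not called, with a median of -0.75. The kinase genes CDKB2;1 and CDKB2;2 were at -3.49 (SE 0.22) and -2.48 (SE 0.23). The 3 that rose, named with their values known, were CDC20.1 at 1.05 (SE 0.20), CDC20.2 at 1.23 (SE 0.25) and CYCB2;2 at 1.04 (SE 0.40). CYCB2;2 passed narrowly (adjusted p = 0.0474), and 2 to 3 genes of the list were called higher with 1 library left out. Whether condensin differed from these complexes was not tested.

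Over the 6 libraries, genes among the 5 with the pattern most like that of MMD1, by Pearson's r of log2 CPM and leaving out the other 8 genes described here, were AT5G37460 (r = 0.9988), AT1G52430 (0.9987), AT5G21900 (0.9985) and the syntaxin gene SYP42 (0.9980). AT1G52430 was at 28.8, 5.76 and 8.15 CPM in knu-2, against 79.1, 110.2 and 169.9 CPM in Ler. Like MMD1 it was highest in replicate 1 among the knu-2 libraries and highest in replicate 3 among the Ler libraries. SYP42 was at 19.4, 12.7 and 13.0 CPM in knu-2, against 29.0, 33.2 and 34.6 CPM in Ler. Of the genes tested, 17.7% had an r with MMD1 above 0.9 and 0.456% above 0.99. The condensin genes had an r with MMD1 of 0.98 for CAP-H and SMC2A, 0.97 for CAP-D2, CAP-G and SMC4, 0.965 for CAP-D3, 0.762 for SMC2B and 0.105 for CAP-H2. These values rest on 6 libraries that fall into 2 genotypes and are given as a description.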

How the data were processed

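RNA was sequenced from 3 knu-2 and 3 Ler collections of male meiocytes, grouped by the labels. The authors deposited 1 whole-number count per gene and library, not normalized as judged from the values, with the gene length in base pairs. Aligner, counter, build and strandedness: not given in the sources used here. From 27655 genes, 27444 were found in TAIR10.1, 99.4% of them with the length of the merged exons. Depth and limits of a count of 0 cover counting error only.

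A robust edgeR quasi-likelihood model (glmQLFit, glmQLFTest; edgeR 4.0.16, limma 3.58.1, DESeq2 1.42.0, R 4.3.3) with genotype as its term was fitted to all 6 libraries after filterByExpr, which kept 18422 genes, with TMM scaling (factors 1.06 to 1.21 in knu-2 and 0.870 to 0.914 in Ler). Genes left out held 0.0769% of counts. Calls used a Benjamini-Hochberg adjusted p under 0.05 over all genes tested. Every adjusted p of a single gene is from this model unless another is named. SE is the log2 fold change over the root of its F statistic. Differences of log2 CPM used a pseudocount of 0.25. Within-library ratios were tested by exact two-sided permutation. Alternatives were a replicate block, other scalings, other filters, DESeq2, limma-voom and leaving out each library, and, for ratios and relative levels, another pseudocount, no length correction and other marker summaries.

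The 9 genes and the lists were chosen with earlier results of these data known. Named were the 9 genes, CAP-G2, KNU, the 2 called genes with the smallest p in each related list and the 5 genes most like MMD1, of which 1 is not reported here; others are said to be named with their values known. No pair of same-genotype libraries was alike enough to be 1 library deposited again (chi-square over its degrees of freedom 20.3 or more).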

Additional observations from a re-analysis of the deposited data

How the results depend on the processing

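Of the 9 genes, 8 were called lower under every alternative to the model except 2, each of which left 7: the replicate block and no scaling beyond library totals. With the replicate block MMD1 was at -3.78 (adjusted p = 0.0806), and over all its alternatives its adjusted p ran from 6.49e-06 to 0.0806. Replicate numbers did not pair the libraries: same-numbered libraries had correlations of their deviations of -0.11, 0.13 and 0.06, and the block called 4562 genes lower and 4284 higher in place of 4501 and 4355. Without scaling SMC2B was at -0.59 (adjusted p = 0.131), and 3499 genes were lower and 6149 higher. CAP-H2, never called, was at -0.0139 with DESeq2 size factors, at -0.0136 with DESeq2, and from -0.0800 to 0.26 without 1 library (-0.0453 without Ler replicate 2, -0.0593 without knu-2 replicate 1). The ratio of SMC2B to SMC2A differed by -0.37 to 0.43 on the log2 scale without 1 library, and by 0.07 with the replicate block, where 3 pairs allow no p under 0.25. Levels relative to the meiocyte markers moved when the median of the markers was used, to 0.79 for CAP-D2, 0.42 for CAP-G, 1.12 for CAP-H, 0.35 for CAP-D3 and -0.0295 for SMC4, and when REC8 was left out of the markers, to 0.73 for CAP-D2, 0.36 for CAP-G, 0.29 for CAP-D3 and -0.087 for SMC4. The cause of the other changes was not tested. Among other genes followed singly through the alternatives, REC8, DYT1, AT1G33420, AT5G37460 and AT1G52430 lost their call under some. TDM1 gained one with DESeq2 (adjusted p = 0.0125), limma-voom (0.00607) and without knu-2 replicate 1. CDC20.1, CDC20.2 and CYCB2;2 were not followed singly, and 2 to 3 G2/M genes were called higher without 1 library. Counts of the 9 genes ran from 74 to 4976 per library, and with 3 libraries a genotype the standard error was largest for MMD1.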
